A study of Monodelphis domestica with 6 samples.

Results

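The fibroblast growth factor (FGF) genes of the opossum Monodelphis domestica, a laboratory marsupial, were described here together with their receptors and the genes that FGF signalling is known to switch on as feedback. Members were chosen by gene symbol: the numbered FGF genes, FGFR1 to FGFR4, FGFRL1, KLB, the Sprouty (SPRY) and Spred (SPRED) genes, DUSP4, DUSP5 and DUSP6, and ETV1, ETV4 and ETV5. Of 35665 genes in the files, 38 carried such a symbol. No row was found for FGF21 or SPRED3, which were not analysed here, and ETV1, listed under a LOC symbol that the selection by symbol does not reach, is given separately at the end of the ETS factors.

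RNA of neonatal skin fibroblasts (neoSFs) was sequenced from wild-type animals of the inbred FD2M1 and LSD1 strains, with 1 library per strain and no reprogramming treatment (n = 2). The other 4 libraries came from the iPSCs made from such cells (monoiPSCs, n = 4), which are 1 FD2M1 line and 1 LSD1 line, each at passage 15 (P15) and passage 25 (P25). The neoSFs were primary cultures from female pups, expanded in a medium with serum. The lines were made by nucleofection with episomal plasmids for human OCT4, SOX2, NANOG, KLF4, LIN28 and cMYC together with a dominant negative p53 plasmid, and were grown without feeder cells in a medium with human LIF, added basic FGF (bFGF, the FGF2 protein) and a ROCK inhibitor. The labels list no FGF among the components of the neoSF medium. The passages of a line are not independent cultures, so p-values measure the spread between these libraries. The neoSF libraries were read single-end in one facility and the monoiPSC libraries paired-end in another, and the medium differed between the same groups, so that the parts of cell type, medium and sequencing in a difference cannot be told apart.

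The total count was 14278794 and 16982978 in the neoSF libraries and 28684754 to 35564261 in the monoiPSC libraries. Levels are normalized read counts (NRC), which are the deposited counts times 1 factor per library and are not divided by gene length, so that libraries can be compared for 1 gene but genes cannot be ranked against each other. An NRC of 5.85 (FD2M1) or 4.75 (LSD1) stood for 3 counts in neoSFs, against 1.55 to 1.88 in monoiPSCs. The cell labels were checked against marker genes. All 10 fibroblast markers measured were lower in monoiPSCs and all 10 pluripotency markers were higher, and POU5F1, SOX2, NANOG, LIN28A, PRDM14 and TDGF1 had at most 3 counts in each neoSF library. Summed NRCs of keratinocyte markers (58.5 and 156 in neoSFs, 0.3 to 7.0 in monoiPSCs) and of endothelial or blood cell markers (31.7 and 33.5, and 30.8 to 51.2) were low. No row was found for KRT1, KRT5, KRT10 or HBA1, so these sums cover 4 of 7 keratinocyte and 5 of 6 endothelial or blood cell markers listed. Melanocyte markers summed to 257 and 407 in neoSFs and 4604 to 15571 in monoiPSCs. Of the 5 melanocyte markers measured, 2 passed the test filter given below, and 1 of these was called higher in monoiPSCs. Skeletal muscle markers summed to 17524 and 21803 in neoSFs against 1971 to 16774 in monoiPSCs. Neural markers summed to 7306 and 25794 against 7121 to 16012, and mesendoderm markers to 559 and 1293 against 1254 to 4016. The sums hide calls of single genes. Of 5 neural markers tested, 4 were called higher in monoiPSCs and 0 lower. Of 4 muscle markers tested, 1 was called higher and 1 lower, and of 4 mesendoderm markers tested, 2 higher and 1 lower. What part of any value below came from cells of these types was not tested.

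FGFs are secreted proteins that bind receptor tyrosine kinases at the cell surface with heparan sulfate as a cofactor, and the bound receptor drives the RAS-ERK cascade. A small branch of the family, FGF11 to FGF14, stays inside the cell and binds voltage-gated sodium channels, and another branch circulates as hormones that need a Klotho protein. ERK activity induces its own brakes, which are the Sprouty and Spred proteins and dual-specificity phosphatases such as DUSP6, and it induces the PEA3 group of ETS transcription factors, so these transcripts are widely used as readouts of FGF signalling. Human pluripotent stem cells are grown in added FGF2, and dermal fibroblasts are a known source of FGF7 and FGF10 for the overlying epithelium.

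Of the 10 tested feedback and ETS genes, 7 rose in monoiPSCs, ETV4 by 51.6-fold and SPRY4 by 23.5-fold, while 3 of the 5 tested receptors fell. FGF7 fell to a few counts, and FGF10, FGF16, FGF18 and FGF22 rose. Of the 38 genes, 27 reached an NRC of 20 in both neoSF or in all 4 monoiPSC libraries and were tested, and 11 did not reach it. Genes were called at an adjusted p of at most 0.05 and a change of at least 2-fold (edgeR quasi-likelihood test with Benjamini-Hochberg adjustment over all 13072 genes tested). In all, 19 of the 27 were called, where 45.9% of all genes tested were. Of these, 15 were higher in monoiPSCs, where 24.3% of all genes tested were called higher, and 4 were lower, where 21.6% were called lower. The groups did not overlap for 24 of the 27, against 73.2% of all genes tested. Of the 27, 7 were tested only because of their level in monoiPSCs and 1 only because of its level in neoSFs, so the filter itself favoured a difference in those 8. DUSP4 was the only feedback or ETS gene among those 8. Among the 19 that were expressed in both groups, 12 were called, against 38.6% of the 10979 genes expressed in both groups. Of these 19, 9 were called higher and 3 lower, against 18.8% and 19.7%, and the groups did not overlap for 16, against 69.9%. The median log2 fold change of these 19 was 0.45, and that of all genes tested was 0.08. In these bulk libraries, fewer cells that make a transcript and less of it per cell cannot be told apart.

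**Figure D1:**
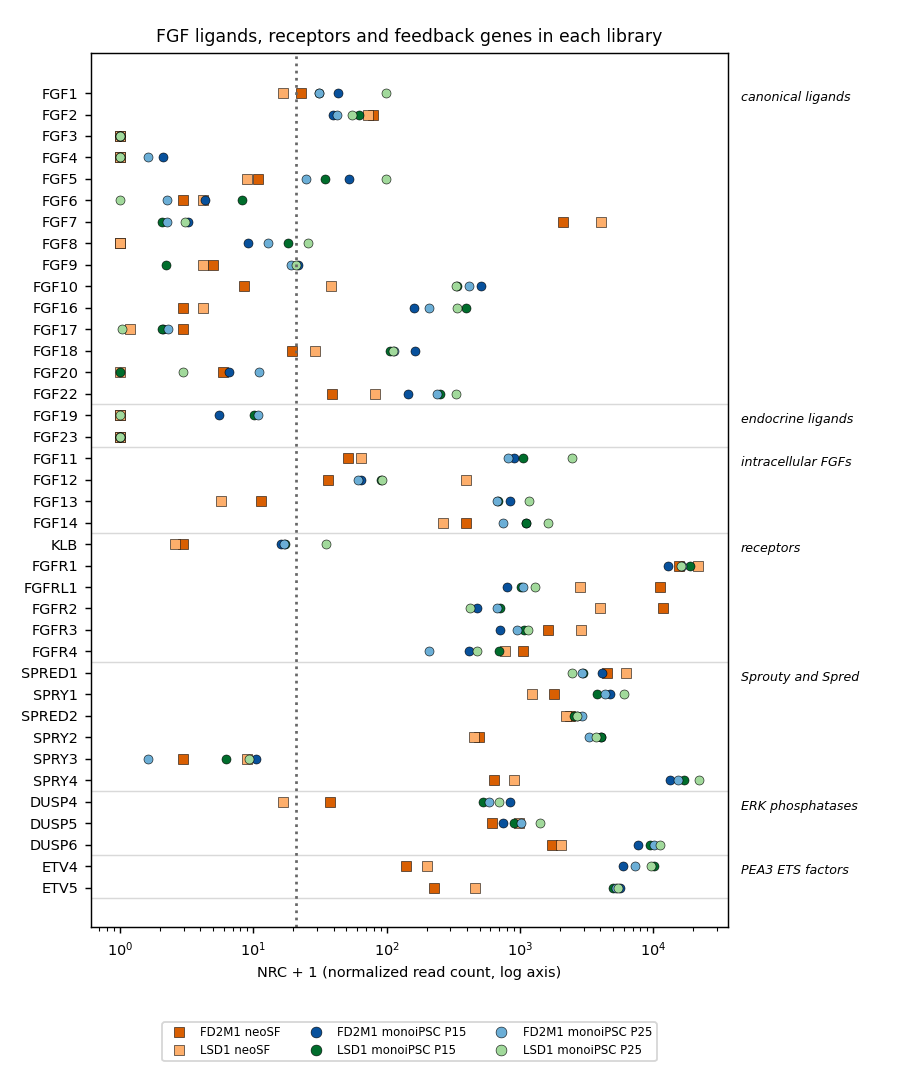
NRC + 1 (log axis) of each of the 38 genes in the 6 libraries, grouped by role, with squares for the 2 neoSF libraries, circles for the 4 monoiPSC libraries and a dotted line at the NRC of 20 used for testing. ETV4, ETV5, SPRY2 and SPRY4 show the monoiPSC circles well to the right of both squares, FGF7 and FGFR2 show them to the left, and FGFR1 shows them interleaved.

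In the plot of levels by library, the widest gap was that of FGF7, the keratinocyte growth factor that fibroblasts secrete (chromosome 1 of MonDom5). The NRC of FGF7 was 2118 in FD2M1 and 4081 in LSD1 neoSFs, and 2.24, 1.05, 1.26 and 2.06 in the monoiPSC libraries, which are always given here in the order FD2M1 P15, LSD1 P15, FD2M1 P25 and LSD1 P25. The monoiPSC values rest on 12 counts in the 4 libraries together. The mean NRC in neoSFs was 1876 times that in monoiPSCs, with a 95% Poisson interval of 1074 to 3630.4 that covers only the counting error of those 12 counts. The fitted log2 fold change was -10.70 ± 0.39 (SE; edgeR adjusted p = 7.81e-06), and 19 of the 13072 genes tested fell further. FGF7 shares part of its gene span with FAM227B in RefSeq, and reads of overlapping genes cannot be told apart where counting does not use strand, but the NRC of FAM227B was 11.8 and 8.53 in neoSFs and at most 2.83 in monoiPSCs.

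FGF10, the close relative of FGF7 that binds the same FGFR2 splice form, went the other way (chromosome 3). The NRC of FGF10 was 7.48 and 37.5 in FD2M1 and LSD1 neoSFs and 511, 338, 415 and 332 in monoiPSCs. All 4 monoiPSC libraries lay far above both neoSF libraries, which themselves differed 5.01-fold on 3.8 and 23.7 counts. The log2 fold change was 4.17 ± 0.58 (SE), or 18.0-fold (edgeR adjusted p = 0.000717). It was 5.76 without the LSD1 neoSF library and 3.48 without the FD2M1 neoSF library, and called both times.

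FGF16, a ligand of the FGF9 subfamily on the X chromosome, was at the floor in neoSFs. In each library, the NRC of FGF16 was 1.95 and 3.17 in neoSFs, from 1 and 2 counts, and 158, 391, 207 and 339 in monoiPSCs. The mean NRC of FGF16 was at least 46.8-fold higher in monoiPSCs, taking the NRC of 3 counts in the FD2M1 neoSF library, where they weigh most, as the limit (edgeR adjusted p = 0.000186). Both LSD1 libraries held more FGF16 than both FD2M1 libraries.

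FGF18, which acts on cartilage and bone through FGFR3 and other receptors, and FGF22, a relative of FGF7 and FGF10, rose less (chromosomes 1 and 3). The NRC of FGF18 was 18.5 and 28.0 in neoSFs and 161, 105, 113 and 111 in monoiPSCs, a log2 fold change of 2.43 ± 0.40 (SE; edgeR adjusted p = 0.00143). The NRC of FGF22 was 37.8 and 81.4 in neoSFs and 144, 251, 239 and 332 in monoiPSCs, a log2 fold change of 2.12 ± 0.47 (SE; edgeR adjusted p = 0.0062). Neither gene overlapped between the groups. FGF22 was the only secreted ligand called in either direction that was expressed in both groups, and its log2 fold change was 2.80 without the LSD1 and 1.67 without the FD2M1 neoSF library.

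FGF5, a ligand of the same subfamily as FGF4 that is known as a marker of the mouse postimplantation epiblast (chromosome 5), was measured on few counts in neoSFs. The NRC of FGF5 was 9.76 and 7.92 in neoSFs, from 5 counts each, and 51.0, 33.6, 24.0 and 97.5 in monoiPSCs. The monoiPSC libraries spread 4.06-fold among themselves, with LSD1 P25 highest and FD2M1 P25 lowest. The log2 fold change was 2.64 ± 0.76 (SE; edgeR adjusted p = 0.0181), and the call was lost without the FD2M1 neoSF library (adjusted p = 0.0691) and without the LSD1 neoSF library (adjusted p = 0.093).

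The ligands FGF1 and FGF2, which lack a classical secretion signal, were not called. The NRC of FGF1 (chromosome 1) was 21.8 and 15.6 in neoSFs and 42.1, 30.0, 30.0 and 98.0 in monoiPSCs, a log2 fold change of 1.52 ± 0.66 (SE; edgeR adjusted p = 0.0798). The NRC of FGF2, the ligand that was also added to the monoiPSC medium as protein, was 78.5 and 72.1 in neoSFs and 38.5, 61.5, 41.6 and 53.9 in monoiPSCs. All 4 monoiPSC libraries lay below both neoSF libraries for FGF2, but the log2 fold change of -0.51 ± 0.34 (SE) missed the threshold (edgeR adjusted p = 0.227). FGF2 (chromosome 5) lies opposite NUDT6 in RefSeq with overlapping spans, and NUDT6 was measured at 39.0 and 36.8 in neoSFs and 24.3 to 42.4 in monoiPSCs, so part of the reads of either gene could belong to the other.

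The ligands under the test limit were FGF3, FGF4, FGF6, FGF8, FGF9, FGF17, FGF20 and the endocrine ligands FGF19 and FGF23. FGF8, a ligand of the primitive streak and of several later signalling centres, had 0 counts in both neoSF libraries and an NRC of 8.18, 17.2, 11.9 and 24.7 in monoiPSCs, which is at least 2.65-fold higher. With no filter on expression FGF8 was called higher (edgeR adjusted p = 0.00734). FGF8 shares part of its gene span with the long noncoding RNA gene LOC103101130 in RefSeq. The level of that gene was not examined here, so part of the FGF8 reads could belong to it. FGF9, which signals in gonad and lung development, had an NRC of 4.00 and 3.17 in neoSFs and 20.6, 1.21, 18.1 and 20.1 in monoiPSCs, so that LSD1 P15 alone stayed at the neoSF level. FGF19, a bile acid hormone in adult intestine, was at 0 in neoSFs and in LSD1 P25 and at 4.49, 9.20 and 9.88 in the others. FGF4, the ligand of the mouse inner cell mass, had at most 2 counts in any library, and FGF3 and FGF23 had none. FGF6, FGF17 and FGF20 did not exceed an NRC of 10.04 in any library, with overlapping groups.

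The make-up of the ligand counts changed accordingly. Of the counts on the 15 secreted, non-endocrine ligands, FGF7 took 91.8% and 94.2% in neoSFs and 0.0849% to 0.196% in monoiPSCs. In monoiPSCs the counts were spread over FGF10 (23.5% to 44.5%), FGF16 (13.8% to 31.6%), FGF22 (12.6% to 23.5%) and FGF18 (7.85% to 14.0%). FGF10 took a larger share in the FD2M1 libraries (44.5% and 37.3%) than in the LSD1 libraries (27.3% and 23.5%), and FGF16 a larger share in the LSD1 libraries (31.6% and 24.0%) than in the FD2M1 libraries (13.8% and 18.6%). The summed NRC of the ligands was 2307 and 4334 in neoSFs and 1114 to 1412 in monoiPSCs. These are shares of counts without a correction for gene length, on 1182 to 2740 ligand counts per library, and they were not tested.

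**Figure D2:**
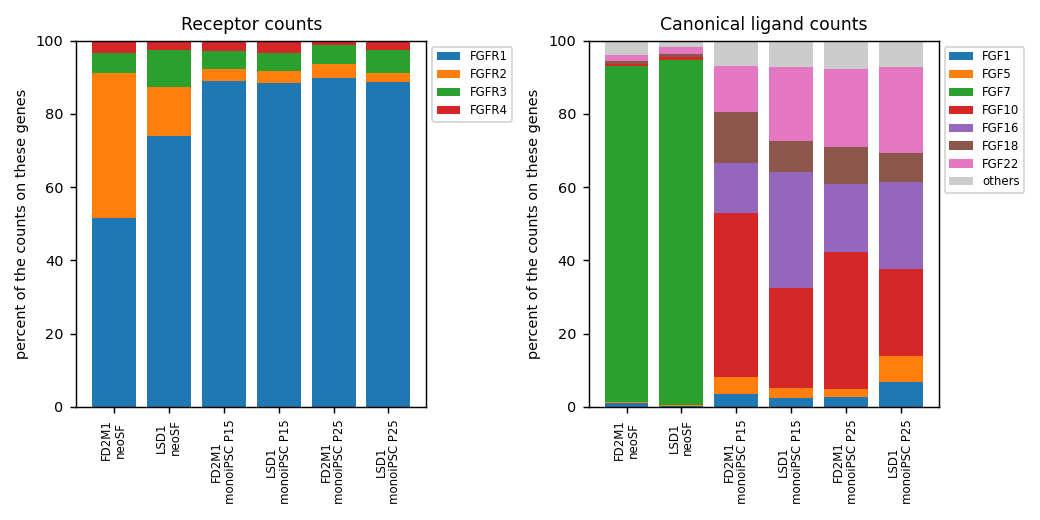
Share (percent) of the counts on FGFR1 to FGFR4 (left) and on the 15 secreted, non-endocrine ligands (right) that fell on each gene, 1 stacked bar per library. FGF7 fills over 91% of both neoSF ligand bars, the monoiPSC ligand bars are divided between FGF10, FGF16, FGF18 and FGF22, and FGFR1 takes 51.6% and 73.9% of the receptor bar in neoSFs and 88.4% to 89.9% in monoiPSCs.

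Among the intracellular FGFs, FGF11, FGF13 and FGF14 were higher in monoiPSCs. The NRC of FGF13 (X chromosome), a sodium channel partner that also binds microtubules, was 10.4 and 4.75 in neoSFs and 835, 683, 670 and 1162 in monoiPSCs. The log2 fold change of 6.97 ± 0.46 (SE; edgeR adjusted p = 3.35e-05) rests on 5.3 and 3.0 counts in neoSFs, and it placed FGF13 297th from the top of 13072 genes. FGF13 shares part of its gene span with the protein-coding gene LOC100012149 and with miRNA genes in RefSeq. Their levels were not examined here, so part of the FGF13 reads could belong to them. The NRC of FGF11 (chromosome 2) was 50.6 and 63.6 in neoSFs and 906, 1046, 812 and 2463 in monoiPSCs, a log2 fold change of 4.60 ± 0.61 (SE; edgeR adjusted p = 0.000571). FGF14 (chromosome 7), whose loss causes an ataxia in humans, rose from 393 and 266 to 1101, 1102, 745 and 1613, a log2 fold change of 1.89 ± 0.34 (SE; edgeR adjusted p = 0.00235). LSD1 P25 was the highest library for all of these genes, and it was also the highest monoiPSC library for the summed neural markers (16012, against 7121 to 11567 in the others) and muscle markers (16774, against 1971 to 6136). The part of those cells in the FGF11, FGF13 and FGF14 levels was not tested.

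FGF12, the remaining intracellular member (chromosome 7), was set apart by 1 library. The NRC of FGF12 was 35.1 in FD2M1 neoSFs, 393 in LSD1 neoSFs and 62.9, 90.2, 60.2 and 90.7 in monoiPSCs. The monoiPSC libraries lay between the neoSF libraries, and the log2 fold change of -1.41 ± 0.73 (SE) was not called (edgeR adjusted p = 0.132). It became 1.22 without the LSD1 neoSF library and -2.28 without the FD2M1 neoSF library, where it was called (adjusted p = 0.00225). Neural markers also summed higher in the LSD1 neoSFs (25794) than in the FD2M1 neoSFs (7306), and their part was not tested.

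The receptors fell or did not pass the test. FGFR1 (chromosome 1), the receptor through which FGF2 maintains human pluripotent cells, showed no called change. The NRC of FGFR1 was 15510.5 and 21569 in neoSFs and 12825, 18825, 16360.5 and 16172 in monoiPSCs, with overlapping groups. The log2 fold change was -0.11 ± 0.22 (SE; edgeR adjusted p = 0.664), and 0.15 without the LSD1 neoSF library.

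FGFR2 (chromosome 1), whose splice forms answer FGF7 and FGF10 in epithelia and other ligands in mesenchyme, fell most among the receptors. The NRC of FGFR2 was 11887 and 3980.2 in neoSFs and 472, 705, 676 and 423 in monoiPSCs. Even the lower neoSF library stood 5.65-fold above the highest monoiPSC library. FGFR2 fell by 3.70 ± 0.41 (SE) on the log2 scale, to 0.0768 of its neoSF level (edgeR adjusted p = 0.00026), and its log2 fold change was -2.72 without the FD2M1 neoSF library. The files give 1 value per gene, so the splice forms of the receptors were not analysed here.

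FGFRL1 (chromosome 5), a receptor-like protein without a kinase domain that can act as a decoy, had the same pattern. The NRC of FGFRL1 was 11254 and 2822 in neoSFs and 797, 1020.4, 1056 and 1288 in monoiPSCs. FD2M1 neoSFs were again higher than LSD1 neoSFs, by 3.99-fold. FGFRL1 fell by 2.66 ± 0.46 (SE) on the log2 scale (edgeR adjusted p = 0.00187), and was called without either neoSF library (-1.35 without FD2M1, -3.33 without LSD1).

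FGFR3 (chromosome 5), known as a brake on growing cartilage, and FGFR4 (chromosome 1), a receptor for FGF19, moved less. The NRC of FGFR3 was 1614 and 2873 in neoSFs and 707, 1072, 949.8 and 1147 in monoiPSCs, a log2 fold change of -1.12 ± 0.27 (SE; edgeR adjusted p = 0.00874). The call was lost without the LSD1 neoSF library (-0.63), without the FD2M1 P15 library (-0.996) and with passage 25 alone. The NRC of FGFR4 was 1045 and 775 in neoSFs and 414, 691, 209 and 479 in monoiPSCs, and its log2 fold change of -0.92 ± 0.41 (SE; edgeR adjusted p = 0.0851) was called only when the LSD1 P15 library was left out (-1.21). KLB, the Klotho protein that FGF19 and FGF21 need, was under the test limit, with an NRC of 1.95 and 1.58 in neoSFs (1 count each) and 15.2, 16.3, 16.0 and 34.0 in monoiPSCs, at least 3.48-fold higher. With no filter on expression KLB was called higher (edgeR adjusted p = 0.00866).

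The summed NRC of FGFR1 to FGFR4 was 30056 and 29198 in neoSFs and 14419 to 21293 in monoiPSCs. FGFR1 made up 51.6% and 73.9% of these counts in neoSFs (62.7% ± 15.7, SD, n = 2) and 89.0%, 88.4%, 89.9% and 88.8% in monoiPSCs (89.0% ± 0.646, SD, n = 4). FGFR2 made up 39.6% and 13.6% in neoSFs (26.6% ± 18.3, SD, n = 2) and 2.32% to 3.72% in monoiPSCs (3.16% ± 0.591, SD, n = 4). The bars of receptor shares show 4 nearly identical monoiPSC libraries and neoSF libraries that differ from them and from each other. The groups did not overlap for either receptor, and the two-sided exact permutation test over the 15 splits of 4 against 2 libraries gave p = 0.0667 for both, the smallest it can give (0.133 after Benjamini-Hochberg adjustment over the 4 receptors). The difference of 26.3 percentage points for FGFR1 was 15.1 without the FD2M1 and 37.4 without the LSD1 neoSF library, and that of -23.4 for FGFR2 was -10.5 and -36.4. For FGFR3 and FGFR4 the exact p was 0.133 and 0.467.

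The inhibitors that ERK signalling induces rose in part. SPRY1, SPRY2 and SPRY4 encode Sprouty proteins, which block the path from receptor tyrosine kinases to ERK. The NRC of SPRY4 (chromosome 1) was 633 and 901 in neoSFs and 13458, 16928, 15327 and 22046 in monoiPSCs. The log2 fold change of SPRY4 was 4.56 ± 0.32 (SE), or 23.5-fold (edgeR adjusted p = 3.87e-05).

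The NRC of SPRY2 (chromosome 7) was 494 and 450.0 in neoSFs and 4037, 4072, 3281 and 3740 in monoiPSCs. The highest monoiPSC library was 1.24 times the lowest, and the log2 fold change was 3.10 ± 0.18 (SE; edgeR adjusted p = 2.11e-05). SPRY1 (chromosome 5) was already well expressed in neoSFs, at 1809.8 and 1238, and reached 4768, 3781, 4348 and 6079 in monoiPSCs, a log2 fold change of 1.74 ± 0.26 (SE; edgeR adjusted p = 0.000941). The Sprouty genes thus changed to different degrees, and the ratio of SPRY4 to SPRY1 counts was 0.35 and 0.727 in neoSFs and 2.82 to 4.48 in monoiPSCs. SPRY3 (X chromosome) stayed under the test limit in both groups, at an NRC of 0.63 to 9.45 over the 6 libraries.

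SPRED1 and SPRED2 (both on chromosome 1), the related inhibitors that bind neurofibromin and act on RAS, did not follow the Sprouty genes. The NRC of SPRED1 was 4458 and 6232 in neoSFs and 4128, 2986, 2935 and 2456 in monoiPSCs. Its log2 fold change of -0.68 ± 0.24 (SE) passed the p threshold (edgeR adjusted p = 0.04) but not the 2-fold limit, so it was not called. The NRC of SPRED2 was 2365 and 2207 in neoSFs and 2689, 2547, 2931 and 2684 in monoiPSCs, a log2 fold change of 0.34 ± 0.13 (SE; edgeR adjusted p = 0.0535).

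DUSP4, DUSP5 and DUSP6 encode phosphatases that remove the activating phosphates from ERK, DUSP6 in the cytoplasm and the others in the nucleus. The NRC of DUSP6 (chromosome 8) was 1744 and 2049 in neoSFs and 7713, 9416, 10169 and 11253 in monoiPSCs, a log2 fold change of 2.44 ± 0.21 (SE; edgeR adjusted p = 9.68e-05). The NRC of DUSP4 (chromosome 5) was 36.6 and 15.6 in neoSFs and 843, 528, 588 and 689.7 in monoiPSCs, a log2 fold change of 4.77 ± 0.42 (SE; edgeR adjusted p = 9.94e-05), or 5.47 without the FD2M1 neoSF library. The groups did not overlap for DUSP4 or DUSP6.

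DUSP5 (chromosome 1) was not called. The NRC of DUSP5 was 614 and 977 in neoSFs and 740.3, 904, 1013 and 1423 in monoiPSCs, and the groups overlapped (log2 fold change 0.45 ± 0.30, SE; edgeR adjusted p = 0.231). The ratio of DUSP6 to DUSP5 counts was 2.84 and 2.10 in neoSFs and 7.91 to 10.4 in monoiPSCs.

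ETV4 and ETV5 (both on chromosome 2) are PEA3 factors that act downstream of FGF receptors in many embryonic tissues. The NRC of ETV4 was 139 and 202 in neoSFs and 5917, 10090.0, 7304 and 9658 in monoiPSCs. ETV4 thus went from a low level in both strains to a high level in all 4 monoiPSC libraries, with a log2 fold change of 5.69 ± 0.36 (SE), or 51.6-fold (edgeR adjusted p = 2.95e-05), and 96.6% of the genes tested changed less or fell.

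The NRC of ETV5 was 225 and 461 in neoSFs and 5615, 4981, 5289.6 and 5452 in monoiPSCs. The highest of its 4 monoiPSC libraries was 1.13 times the lowest, and the log2 fold change was 4.05 ± 0.33 (SE; edgeR adjusted p = 6.82e-05), or 4.67 without the LSD1 neoSF library. The ratio of ETV4 to ETV5 counts was 0.617 and 0.437 in neoSFs and 1.05 to 2.03 in monoiPSCs. ETV1, matched through its RefSeq gene number 103099387 on chromosome 8 and therefore outside the counts above, was at 103 and 78.0 in neoSFs and 432, 415, 311 and 391 in monoiPSCs, a log2 fold change of 2.20 ± 0.27 (SE; edgeR adjusted p = 0.000417).

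**Figure D3:**
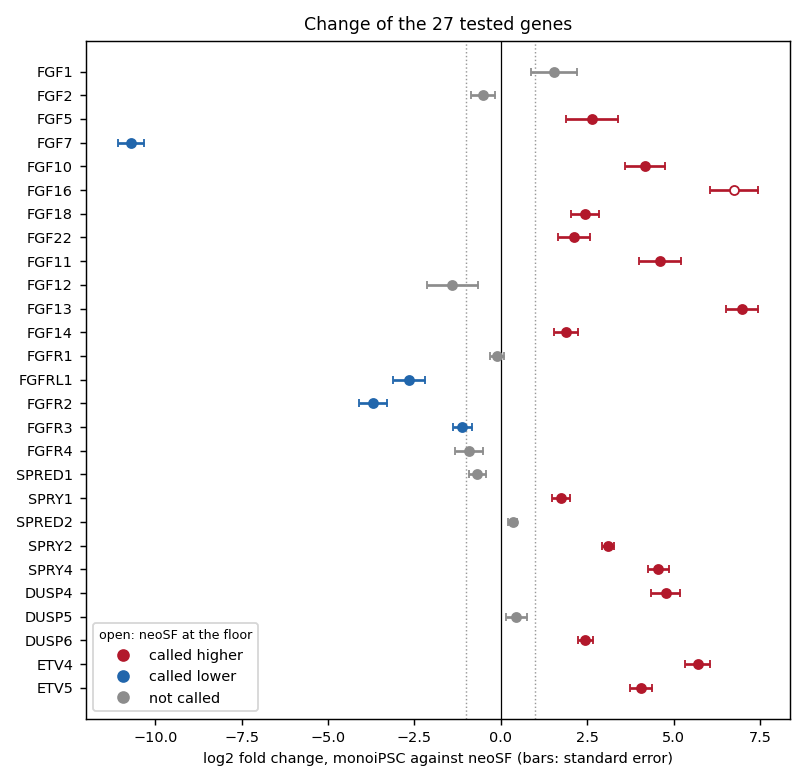
Log2 fold change of monoiPSCs against neoSFs for the 27 tested genes, as fitted by edgeR, with bars of 1 standard error and dotted lines at the 2-fold limit. The Sprouty, DUSP4, DUSP6 and ETS genes lie between 1.74 and 5.69, the receptors between -3.70 and -0.11 and FGF7 at -10.70, and the open symbol marks FGF16, at the floor in neoSFs, whose fitted value is no bound.

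The plot of fold changes follows the family by role. Of the 10 tested feedback and ETS genes, the 3 that were not called were SPRED1, SPRED2 and DUSP5. Of those called, DUSP4 alone passed the filter only through its level in monoiPSCs. Of the 12 tested ligands, secreted and intracellular, 8 were called higher and 1 lower, against 24.3% and 21.6% of all genes tested. Of these 9, FGF22, FGF11 and FGF14 were expressed in both groups, and the others passed the filter through the group in which they were higher.

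Genes that work beside these members in the pathway were read from 4 lists written by gene name, 98 genes in all, of which 83 were tested. Over the 4 lists, 11 of the 83 were called higher and 34 lower, with a median log2 fold change of -0.36, against 24.3% higher and 21.6% lower among all genes tested. Those called higher include GPC3, FGFBP3 and IL17RD, which were tested only because of their level in monoiPSCs. Those called lower include EGR2 and DUSP9, which were tested only because of their level in neoSFs. The filter itself favoured a difference in such genes. In the list of ERK-responsive and other ETS genes, which holds targets of ERK signalling from many receptors, 2 of 21 were called higher and 11 lower, with a median of -1.27, beside 24.3% higher and 21.6% lower of all genes tested. PHLDA1, a target of FGF and other growth factors, was at 476 and 273 in neoSFs and 4659 to 6901 in monoiPSCs (log2 fold change 4.11 ± 0.32, SE; edgeR adjusted p = 5.65e-05). CCND1, the G1 cyclin, rose by 1.08 ± 0.28 (SE) on the log2 scale (edgeR adjusted p = 0.0119) and lost its call without the LSD1 neoSF library. The immediate-early genes FOS, FOSL1 and EGR2 fell, with log2 fold changes of -4.49, -4.31 and -4.24 (edgeR adjusted p at most 0.000398). IER2 (-0.31), EGR3 (-1.66) and MYC (-0.56), also of the list and named after their values were seen, were not called. They do not stand for the rest of the list, where 11 of 21 were called lower. The list also holds EGR1, JUNB and IER3, whose values are not given here. Among the members and this list, the transcripts named so far that ERK is known to induce thus went different ways. SPRY1, SPRY2, SPRY4, DUSP4, DUSP6, ETV4, ETV5, PHLDA1 and CCND1 were called higher, and FOS, FOSL1 and EGR2 lower. SPRED1, SPRED2, DUSP5, IER2, EGR3 and MYC were not called, and SPRY3 was not tested. ETV1, given apart above, was called higher. The negative regulators of the next list are not in this tally. There, 2 of 13 genes were called higher and 5 lower, with DUSP1 (log2 fold change -5.16) among the lower.

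Among the other membrane modulators and negative regulators, 2 of 13 were called higher and 5 lower (median -0.45; all genes tested, 24.3% and 21.6%). IL17RD, also called SEF, an inhibitor at the FGF receptor whose expression follows FGF in embryos, was at 34.0 and 17.4 in neoSFs and 802, 725, 791 and 471 in monoiPSCs (log2 fold change 4.90 ± 0.41, SE; edgeR adjusted p = 7.70e-05). DUSP16 lay at the 2-fold limit (1.00 ± 0.24, SE) and lost its call in most other settings. The log2 fold change was -5.16 for DUSP1, a phosphatase of the stress kinases and ERK, -3.73 for FLRT3, a membrane partner of FGF receptors, and -2.19 for DUSP10, and all 3 were called lower.

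The heparan sulfate enzymes, proteoglycans and FGF carriers had 3 of 24 called higher and 12 lower (median -0.60; all genes tested, 24.3% and 21.6%). The glypicans, proteoglycans tethered to the membrane, went different ways. GPC3 (X chromosome) had 0 and 1 counts in neoSFs and an NRC of 195 to 453 in monoiPSCs, at least 49.1-fold higher, whereas the log2 fold change was -2.60 for GPC1, -3.11 for GPC6 and -4.38 for the syndecan SDC2, all called lower. GPC2 was called higher (1.16 ± 0.43, SE; edgeR adjusted p = 0.0484), but not without the FD2M1 neoSF library (0.55). GPC4, named after its values were seen, was at 10187 and 4105 in neoSFs and 5245 to 10887 in monoiPSCs and was not called (0.31 ± 0.40, SE; edgeR adjusted p = 0.527). FGFBP3, a carrier that releases FGFs from the matrix, was at 107 in FD2M1 neoSFs, 1.58 in LSD1 neoSFs and 1320.3 to 2798 in monoiPSCs (log2 fold change 5.40 ± 1.01, SE; edgeR adjusted p = 0.00268), and the value was 4.36 without the LSD1 and 10.36 without the FD2M1 neoSF library, where it rests on 1 count.

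Of the adaptors and RAS-ERK relay genes, 4 of 25 were called higher, 6 lower and 15 neither way (median -0.25; all genes tested, 24.3% higher and 21.6% lower). FRS2, the docking protein that links FGF receptors to RAS, was at 2085 and 1994 in neoSFs and 592, 446, 481 and 456 in monoiPSCs, and it fell by 1.95 ± 0.16 (SE) on the log2 scale (edgeR adjusted p = 7.69e-05). MAP2K2, which phosphorylates ERK, and the adaptor SHC1 were also called lower, with log2 fold changes of -1.55 and -1.44. Of the RSK kinases, which ERK activates, RPS6KA1, RPS6KA2 and RPS6KA6 were called higher, with log2 fold changes of 4.03, 3.51 and 2.95. RPS6KA3, named after its values were seen, was at 3233 and 3082 in neoSFs and 1523 to 2079 in monoiPSCs, and its log2 fold change of -0.74 (edgeR adjusted p = 0.00597) was under the 2-fold limit.

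**Figure D4:**
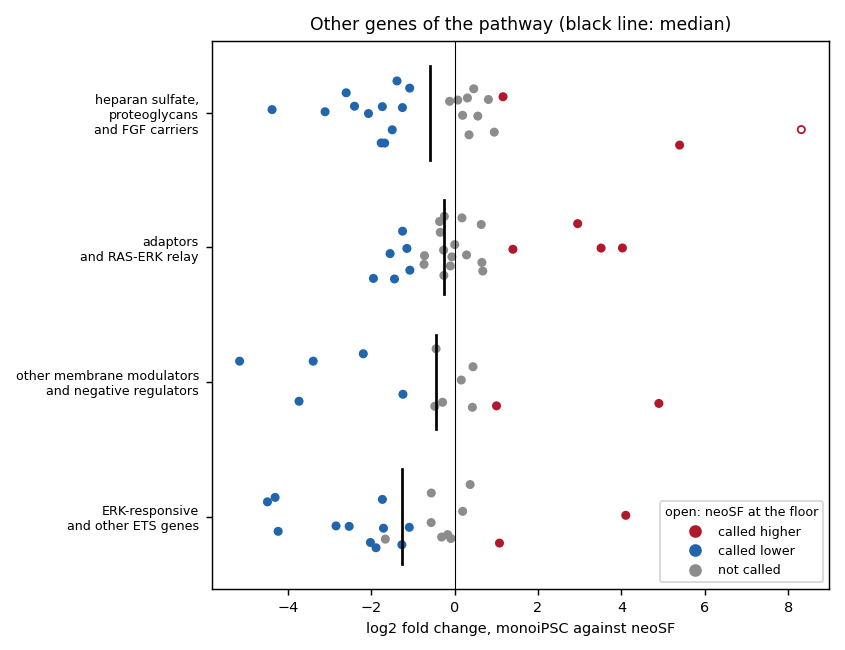
Log2 fold change of monoiPSCs against neoSFs for the 83 tested genes of the 4 pathway lists, 1 point per gene, with a black line at the median of each list and points spread vertically only to be visible. Most called points lie to the left, with medians of -0.60, -0.25, -0.45 and -1.27 from top to bottom, and the open point is GPC3, at the floor in neoSFs.

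How the family varied inside the groups was examined next. Between passage 25 and passage 15, with strain in the fit, none of the 26 members expressed in monoiPSCs was called by edgeR or DESeq2, and 3 of them, FGFR4, SPRED1 and DUSP5, had an unadjusted p under 0.05. Over all 12252 genes expressed in monoiPSCs edgeR called 0 (0% of genes; 9.35% at an unadjusted p under 0.05) and DESeq2 119 (0.971%). The log2 changes from passage 15 to passage 25 were -0.77 for FGFR4, -0.40 for SPRED1 and 0.54 for DUSP5, and the edgeR adjusted p was 0.407, 0.509 and 0.437.

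Between the LSD1 and the FD2M1 line, with passage in the fit, no member was called either, while 6 had an unadjusted p under 0.05 (14.2% of all genes had), and edgeR called 0 and DESeq2 191 of all genes (1.56%). The 6 were FGF16, FGF11, FGFR3, FGFR4, SPRY4 and ETV4, all higher in LSD1, with log2 differences of 1.01, 0.91, 0.44, 0.97, 0.43 and 0.59 and edgeR adjusted p-values of 0.194 to 0.349. A missed threshold does not show that the lines or the passages were alike. LSD1 P25 was the highest of the monoiPSC libraries for 13 of the 26 members, against 31.3% of all expressed genes, and FD2M1 P25 for 1, against 17.2% of all expressed genes.

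The change from neoSFs to monoiPSCs was then taken within each strain. For each of the 10 tested feedback and ETS genes the log2 change had the same sign in both strains, while its size varied. For SPRY4 the log2 change was 4.50 in FD2M1 and 4.42 in LSD1, for DUSP6 2.35 and 2.33, and for ETV4 5.57 and 5.61. It was 4.60 and 3.50 for ETV5, 4.27 and 5.28 for DUSP4, 1.33 and 1.95 for SPRY1 and -0.36 and -1.20 for SPRED1. Among the ligands and receptors it was 5.95 and 3.16 for FGF10, -4.40 and -2.87 for FGFR2 and -3.62 and -1.30 for FGFRL1, and it had opposite signs for FGF12 (0.81 and -2.12). The test of the strain difference in the change called none of the 27 genes by edgeR (0.0841% of all genes were called), while 5 had an unadjusted p under 0.05 (9.13% of all genes had): FGF10, FGF12, FGFR2, FGFRL1 and ETV5. DESeq2 called FGFRL1 (log2 difference 2.32, adjusted p = 0.000118) and FGF12 (-2.92, adjusted p = 0.0246), and 2.34% of all genes. Since each strain had 1 neoSF library, a strain difference and a difference between 2 cultures cannot be told apart.

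**Figure D5:**
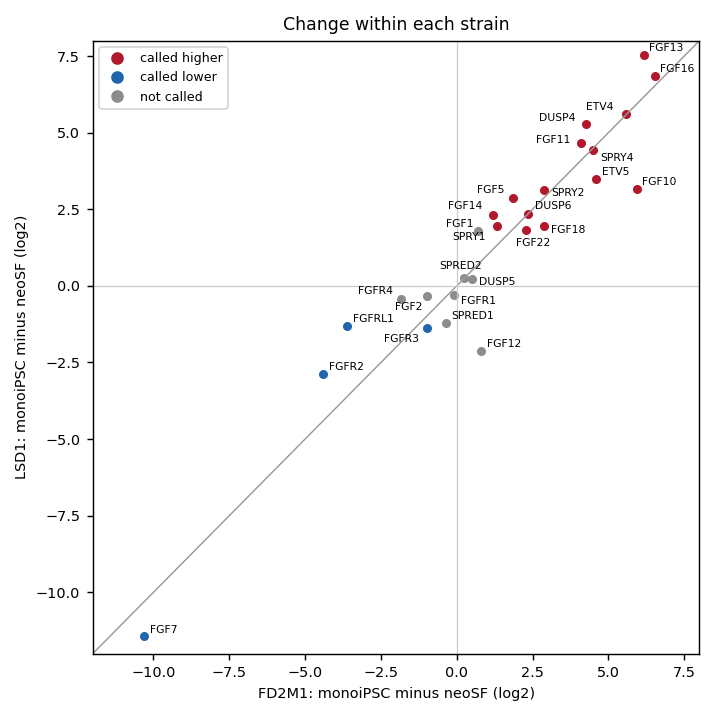
Log2 change from neoSFs to monoiPSCs (mean of both passages, deposited log2 values) in the FD2M1 strain (x axis) and in the LSD1 strain (y axis) for the 27 tested genes, with the line of equal change. SPRY4, DUSP6 and ETV4 lie near the line, FGF10, FGFRL1 and ETV5 lie away from it, and FGF12 lies in the quadrant of opposite signs with 0.81 in FD2M1 and -2.12 in LSD1.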

How the data were processed

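The authors aligned RNA-seq reads to MonDom5 with StrandNGS, counted them on RefSeq genes and deposited per-gene estimated counts and log2 values after DESeq normalization. Of the deposited values above 0, 87.1% were not whole numbers, and the tests used them rounded, as estimated counts. The sources differ on whether the neoSF libraries kept strand, and whether counting used strand or took a read pair once is not given in the sources used here. Members and lists were chosen with earlier results of these data known. A gene was tested if every library of either group reached an NRC of 20. Calls came from edgeR 4.0.16 (glmQLFit and glmQLFTest, TMM, R 4.3.3), and the SE is the log2 fold change divided by the square root of F. DESeq2 1.42.0 and limma 3.58.1 were alternatives. A group with at most 3 counts in each library was taken to be at the floor. Of the lists, every called gene with the 3 highest or 3 lowest changes and a group mean NRC of at least 100 was named, with 3 per direction at most. Strain pairs each line with its neoSF culture by the labels (r of strain differences between the cell types 0.0402 over 13072 genes). The RefSeq table is of another assembly (mMonDom1.pri) and gave names and overlapping spans only, for 36 of the 38 members. Long noncoding RNA genes also overlap FGF1, FGF12, FGF14 and DUSP5 there, and a small nuclear RNA gene overlaps FGFR3. The levels of these RNA genes were not examined here. Scripts were tested on simulated data. Promoter and protein sequences were not analysed here.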

Additional observations from a re-analysis of the deposited data

Results flagged for a closer look

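In 3 of the 34 genes that could be examined, 1 monoiPSC library stood apart from the other 3 by more than the 95% limit of Dixon's ratio for 4 values, a limit that chance alone passes in about 1 in 20 groups. The ratio is the gap over the range of the deposited log2 values, while the levels beside it are NRCs. For FGF9, LSD1 P15 was low (NRC 1.21, against 18.1 to 20.6, with a ratio of 0.955). For FGF18, FD2M1 P15 was high (161, against 105 to 113; 0.832). For KLB, LSD1 P25 was high (34.0, against 15.2 to 16.3; 0.913). The change of FGF12 had opposite signs in the strains, and the test of the strain difference gave -2.94 on the log2 scale (edgeR adjusted p = 0.212 over all genes tested). The cause of each was not tested.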

How the results depend on the processing

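Of 459 values of the 27 members under 17 alternatives, 450 kept their direction and their side of the threshold, 5 lost a call, 2 gained one and 2 changed sign, which were FGF12 (1.22) and FGFR1 (0.15) without the LSD1 neoSF library. With 1 library left out at a time, the log2 fold change of FGF12 ranged from -2.28 to 1.22 and that of FGFR1 from -0.34 to 0.15. Members called higher ranged from 14 to 17 and lower from 3 to 5, against 15 and 4. Leaving out 1 library at a time gave 14 to 15 higher and 3 to 5 lower. The strain as replicate block gave 15 higher and 4 lower members and changed no call of a member. The DESeq2 test of the strain difference called 2 members and 306 genes (edgeR 0 and 11), and DESeq2 called 119 genes between passages and 191 between lines (edgeR 0 and 0). Upper-quartile scaling moved the median log2 change of all genes by 0.106, and the other scalings by less than 0.1. The neoSF libraries limit the precision of genes with few counts there (FGF5, FGF13, FGF16).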
